A study of Mus musculus with 4 samples.

Results

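Carbonic anhydrases were described here through 9 genes of the mouse family, Car2, Car3, Car4, Car7, Car8, Car9, Car12, Car13 and Car14, which are 9 of the 36039 gene names on the array. All probes carrying one of these names in the scanner files were taken, 11 in all. The members were chosen by family name and by measured values of these arrays, among them the higher Car9 signal with AZA and the lower Car14 signal with both inhibitors, so the values below are a description and no test was made. Every sample came from E14Tg2A, a feeder-independent mouse embryonic stem (ES) cell line, whose strain the labels give as 129/Ola. RNA was measured on 4 single-colour arrays, 1 per group, each loaded with a pool of RNA from 3 experiments. The groups were ES cells at day 0, grown with serum and leukemia inhibitory factor, untreated epiblast-like aggregates (ELA) at day 2, floating aggregates in a serum-free minimal medium that stand for the primed state, aggregates formed with 50 nM 5-azacytidine (AZA, which blocks DNA methyltransferases), and aggregates formed with 100 µM 5-carboxy-8-hydroxyquinoline (CHQ, which blocks lysine demethylases). Each condition is thus 1 pool from 1 line, and the labels name no vehicle group. An array with knockdown of SmarcA4 was not analysed here.

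Carbonic anhydrases interconvert carbon dioxide and bicarbonate with release or uptake of a proton, and thereby set the speed at which cells buffer and export acid. Some members work in the cytosol, some in mitochondria, and some are anchored in the plasma membrane with the catalytic site facing outwards, where they cooperate with bicarbonate transporters and proton-coupled lactate carriers. Car9 is a classical target of the hypoxia-inducible factors (HIF), and DNA methylation of its promoter is known to go along with silencing in some human cancer lines.

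All levels are log2 intensities after background correction and quantile normalisation of the 4 arrays. They are compared between arrays for 1 probe, never between probes. Each value of a member comes from 1 spot per array. Repeated spots of other probes gave an SD of a log2 difference between 0.19 and 0.23, depending on the arrays, a spread of spotting and scanning that leaves out biological variation. A gene was called in a comparison when it differed by at least 1 log2 unit, averaged at least 7.5 over the compared arrays and was flagged well above background on either. Fold changes are on this offset scale and understate the change of dim probes. ES and ELA shared 1 slide, and AZA and CHQ the other, so that a treatment and the slide cannot be told apart in either comparison with ELA, whereas ELA against ES and CHQ against AZA lie within a slide. Between 55.1% and 69.2% of the gene spots were well above background, the higher shares being those of AZA and CHQ, and the local background was lower on that slide.

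Over all genes tested, 10.0% were called between ELA and ES (4.45% higher in ELA, 5.59% lower), 25.6% between AZA and ELA (14.3% higher with AZA, 11.4% lower), 26.6% between CHQ and ELA (14.8% higher with CHQ, 11.9% lower) and 10.3% between CHQ and AZA (5.53% higher with CHQ, 4.81% lower). Under scaling to the E1A spike-in probes the share called between ELA and ES was 20.5%. The splits moved as well. Under that scaling the higher calls made up 7.52% of the calls between ELA and ES in place of 44.3%, 45.3% in place of 55.7% between AZA and ELA, 32.9% in place of 55.5% between CHQ and ELA, and 41.7% in place of 53.5% between CHQ and AZA. Under scaling to the 75th percentile the share was 42.0% between CHQ and ELA. The spike-in scaling put the median of all genes tested at -0.59 between ELA and ES, -0.26 between AZA and ELA, -0.39 between CHQ and ELA and -0.18 between CHQ and AZA.

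Of the 9 members, 8 were well above background on all 4 arrays, and Car8 on none. Between AZA and ELA, 7 of 8 members tested were called, 3 higher and 4 lower, with a median difference of -0.48 against -0.07 over all genes tested. Between CHQ and ELA, 6 of 7 were called, 1 higher and 5 lower, with a median of -1.38 against -0.09 over all genes. Since the members were chosen with these comparisons in view, nothing is read from those counts. Between ELA and ES, 2 of 7 were called, Car14 higher and Car12 lower, and the median was 0.01 against -0.02. Between CHQ and AZA, 2 of 8 were called, Car9 and Car2, both lower with CHQ, and the median was -0.39 against -0.02. The choice by Car14 used the ELA array and that by Car9 the AZA array, so nothing is read from these counts either. Car9 passed the filter on low values only in the comparisons that hold the AZA array, where it is bright, and therefore had to differ there. With AZA the called members higher than ELA were Car9, Car12 and Car13 and the lower ones Car3, Car4, Car7 and Car14, while with CHQ Car12 alone was higher and Car2, Car3, Car4, Car7 and Car14 were lower. The called values nearest the threshold were Car2 between CHQ and ELA at -1.01, Car12 between ELA and ES at -1.08 and Car7 between AZA and ELA at -1.08. The nearest values outside it were Car12 between CHQ and AZA at 0.90, Car4 between ELA and ES at 0.87 and Car13 between CHQ and ELA at 0.72.

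**Figure D1:**
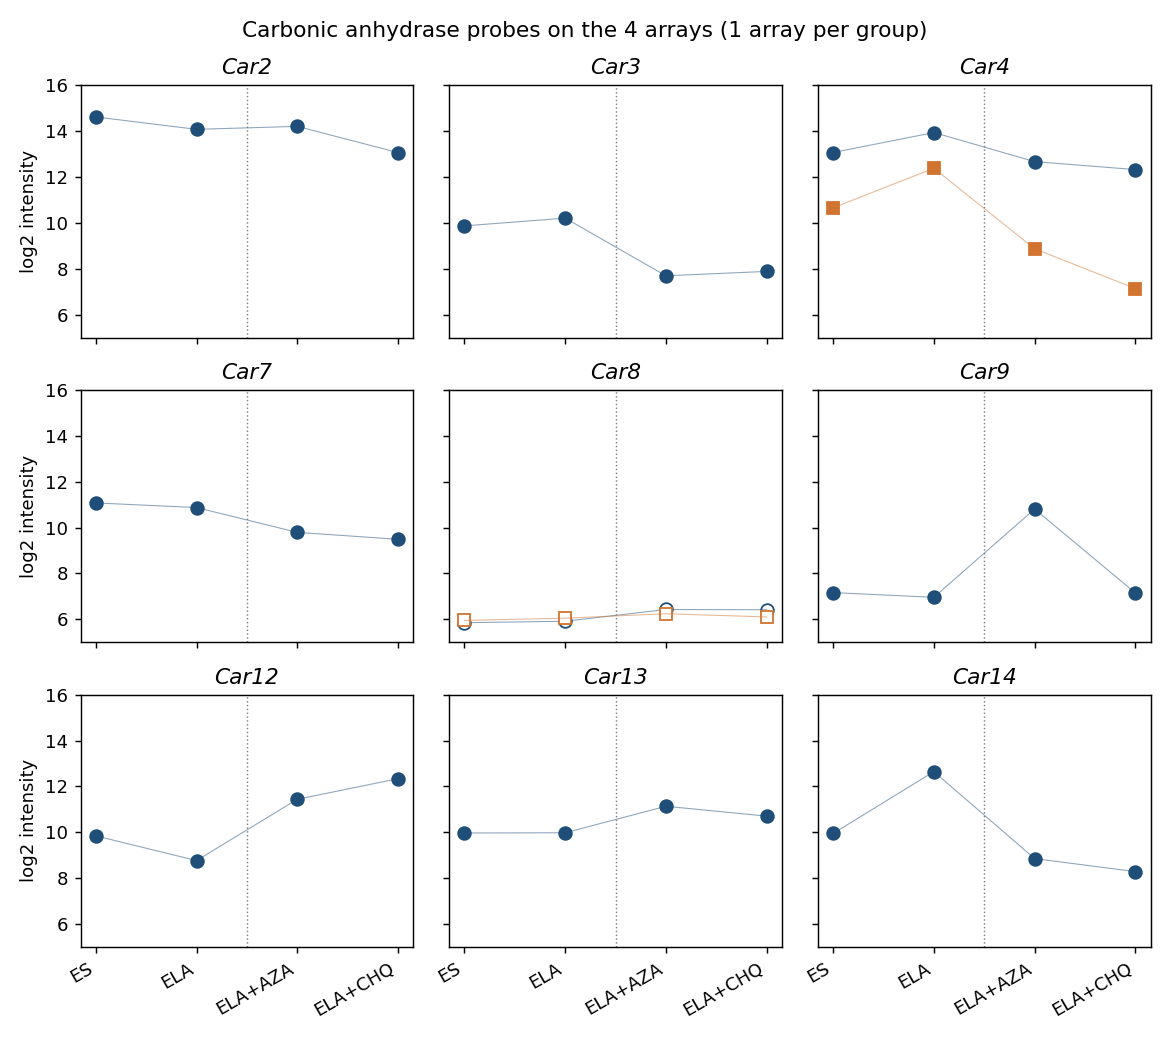
Log2 intensity of every member probe on the 4 arrays, 1 per group. Circles are the brightest probe of a gene and squares another probe of it, filled symbols are well above background and open ones are not, thin lines only join a probe's values, and the dotted line parts the 2 slides. Car9 stands out on the AZA array at 10.80 and Car14 on the ELA array at 12.65.

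Car9 encodes a transmembrane enzyme of the cell surface. Its probe lies at chr4:43526518-43526577 (mm9, plus strand), and its opening 30 bases are shown because this 1 oligonucleotide carries the whole Car9 measurement.
Car9 probe: ttgaatgctgggattacaggaatgcaccat
The Car9 level was 7.16 in ES and 6.96 in ELA, and 10.80 with AZA and 7.15 with CHQ. The AZA array is thus the high one, and the other 3 arrays lie within 0.20 of each other. In Agilent's processed intensity, before any normalisation between arrays, the same spots read 78.4 in ES and 71.0 in ELA, and 1938 with AZA and 84.3 with CHQ. The log2 difference between AZA and ELA was 3.84, a 14.3-fold higher signal. CHQ lay 3.65 log2 units below AZA on the same slide, a 12.6-fold lower signal. Between CHQ and ELA the difference was 0.19, about the SD of repeated spots, and its sign turned to -0.39 under spike-in scaling. AZA also exceeded ES by 3.64. The longest exact run this probe shared, on either strand, with a probe of any other gene on the array was 14 of its 60 bases, with 1 such probe. Cross-hybridisation to transcripts outside the array was not tested.

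Car14 encodes a transmembrane enzyme known from brain, kidney and retina. Its probe lies at chr3:95701859-95701918 (mm9, minus strand).
Car14 probe: ggctgagcctttggccttcaaagctgtgga
The Car14 level was 9.95 in ES and 12.65 in ELA, and 8.86 with AZA and 8.29 with CHQ. The ELA array is high, and both treated arrays lie below ES as well as below ELA. ELA exceeded ES by 2.69 log2 units (6.47-fold) within 1 slide. Against ELA, Car14 was lower by 3.79 with AZA (13.8-fold) and by 4.35 with CHQ (20.5-fold). CHQ lay 0.57 below AZA, which missed the threshold of 1. The treated arrays were 1.09 (AZA) and 1.66 (CHQ) log2 units below ES, across slides.

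Car12, a further transmembrane enzyme with an outward catalytic site, differed in the opposite direction from Car14 in all 4 comparisons. Its probe lies at chr9:66614542-66614601 (mm9, plus strand). The Car12 level was 9.85 in ES and 8.77 in ELA, and 11.44 with AZA and 12.34 with CHQ. ELA is the lowest array and both treated arrays lie above both untreated ones. ELA was 1.08 log2 units below ES. Against ELA, Car12 was 2.67 higher with AZA (6.37-fold) and 3.57 higher with CHQ (11.9-fold). CHQ exceeded AZA by 0.90 within their slide, just short of the threshold and 4.85 times the SD of repeated spots. Car12 and Car9, which are related membrane enzymes, were therefore both high with AZA, while with CHQ the level of Car12 was high and that of Car9 was at the level of the untreated arrays.

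Car4 encodes an enzyme held at the outer cell surface by a lipid anchor, and it was read by 2 probes that differed in size of change. The brighter one lies at chr11:84779487-84779546 and the dimmer one at chr11:84777667-84777726 (mm9, plus strand), starting at bases 1230 and 470 of the target sequence per the files. Both are shown by their opening 30 bases because the Car4 values depend on which is used.
Car4 brighter probe: tgacctcctccccagccccccaattaaatg
Car4 dimmer probe: tgcacctgcactggtcaaatgggaatgaca
The brighter probe read 13.06 in ES and 13.93 in ELA, and 12.66 with AZA and 12.31 with CHQ. The dimmer probe read 10.65 in ES and 12.37 in ELA, and 8.86 with AZA and 7.13 with CHQ. Both probes order the 4 arrays alike, with ELA highest and CHQ lowest, and neither was under background anywhere. The differences between AZA and ELA were -1.27 and -3.51 log2 units for the brighter and the dimmer probe. Between CHQ and ELA they were -1.61 and -5.24, between ELA and ES 0.87 and 1.72, and between CHQ and AZA -0.35 and -1.73. With the mean of both probes in place of the brighter one, Car4 was called in all 4 comparisons. Whether the probes read different transcripts was not tested.

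Among the cytosolic members, Car2 is the fast and widespread enzyme. Its probe lies at chr3:14900206-14900265 (mm9, plus strand). The Car2 level was 14.61 in ES and 14.07 in ELA, and 14.20 with AZA and 13.05 with CHQ. The CHQ array is the low one. CHQ lay 1.01 log2 units below ELA and 1.14 below AZA, while AZA and ELA differed by 0.13, less than the SD of repeated spots, with a sign that turned to -0.08 under spike-in scaling. ELA was 0.54 below ES, and 1.30 below it under spike-in scaling, which alone put it past the threshold.

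Car3, a slow cytosolic enzyme abundant in muscle, fat and liver, was read at chr3:14871781-14871840 (mm9, plus strand). The Car3 level was 9.86 in ES and 10.20 in ELA, and 7.69 with AZA and 7.88 with CHQ. Both treated arrays lie at least 1.98 log2 units below both untreated ones. The difference from ELA was -2.51 with AZA (5.70-fold lower) and -2.32 with CHQ (4.99-fold lower), and the treated arrays differed from each other by 0.19.

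Car7, a cytosolic enzyme known from neurons, was read at chr8:107072897-107072956 (mm9, plus strand). The Car7 level was 11.07 in ES and 10.87 in ELA, and 9.79 with AZA and 9.49 with CHQ. The untreated arrays are again above the treated ones, by 1.08 log2 units for AZA and 1.38 for CHQ against ELA.

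Car13, another cytosolic enzyme, was read at chr3:14662332-14662391 (mm9, plus strand). The Car13 level was 9.97 in ES and 9.98 in ELA, and 11.14 with AZA and 10.71 with CHQ. Both treated arrays exceeded the untreated ones, by 1.15 over ELA and 1.16 over ES for AZA and by 0.72 and 0.73 for CHQ. The differences of AZA from both untreated arrays thus exceeded 1 and those of CHQ did not.

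Car8 encodes a carbonic anhydrase-related protein that lacks catalytic activity. Neither of its 2 probes was well above background on any array, and their levels ran from 5.86 to 6.43. No fold is given for it.

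**Figure D2:**
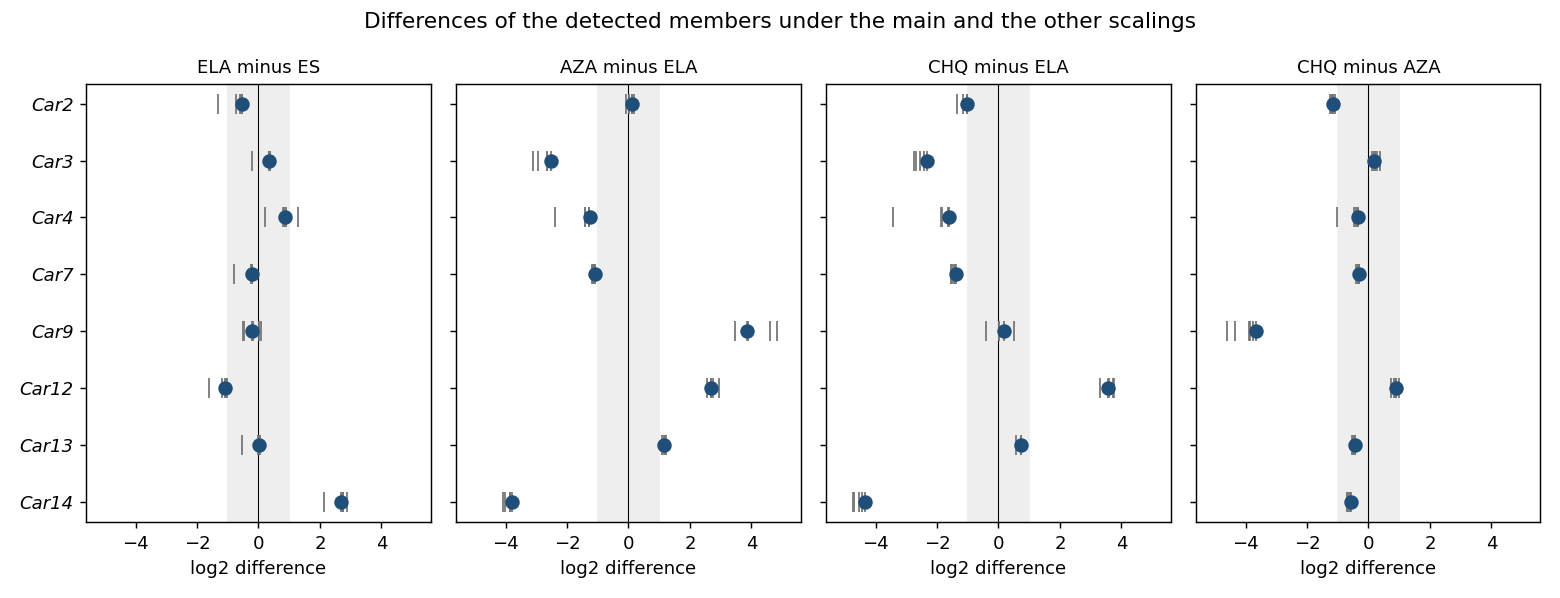
Log2 differences of the 8 members above background in the 4 comparisons. Blue circles are the main values, grey ticks the same difference under the other scalings and the mean over probes, and the grey band marks differences under 1, so that Car9, Car12 and Car14 keep their side of 0 and of the band in the comparisons with AZA while Car4 spreads from -1.27 to -2.39.

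Across all arrays, 6 of the 8 members above background had both treated arrays on the same side of both untreated arrays, Car12 and Car13 above and Car3, Car4, Car7 and Car14 below. Of the 20761 genes above background on all arrays 63.3% did so too, a split that runs with the slide as well as with treatment. Car2 and Car9 are the exceptions. This split is common among all genes and is not particular to the members.

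Car13, Car3 and Car2 lie close together on chromosome 3 with Car1, an enzyme best known from red blood cells, in the order Car13, Car1, Car3, Car2 in RefSeq, with the pseudogene Gm5843 next to Car13. Between AZA and ELA the differences in that order were 1.15, 0.02, -2.51 and 0.13. Between CHQ and ELA they were 0.72, 0.44, -2.32 and -1.01. A dimmer Car1 probe, above background in ELA alone, had -0.87 with AZA and -0.77 with CHQ. By the brightest probes, genes of the cluster thus differed in size, and Car13 and Car3 in sign. Outside the family, 9 genes next to a member were on the array, including A930001A20Rik beside Car2, which was under background throughout and not callable. Of these, 0 were called between AZA and ELA, 2 between CHQ and ELA (Usp32 beside Car4 at 1.11 and Rbis beside Car13 at -1.12), 1 between ELA and ES (Aph1b beside Car12 at 1.20, by its brighter probe), and 2 between CHQ and AZA (Ccdc107 beside Car9 at -1.13 and Usp3 beside Car12 at -1.12). Over all genes tested, the shares were 25.6%, 26.6%, 10.0% and 10.3% in that order, and nothing is read from such small counts. Beside Car9, Ccdc107 was 0.96 higher with AZA than in ELA, against 3.84 for Car9 itself. Beside Car14, BC028528 was 0.64 higher with AZA and 0.25 lower with CHQ.

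The promoter windows of RefSeq (GRCm38.p6, from 250 bases before to 50 after a start) held 7 windows for 5 members, Car4, Car7, Car9, Car12 and Car14. The 250 bases before the start are shown for Car9, Car12 and Car14, the transmembrane members, for which the arrays gave differences on either side of ELA. Capitals mark matches to ACGTG or GCGTG, searched on both strands as the letters at the core of HIF sites.
Car9, chr4:43506776-43507025, plus strand: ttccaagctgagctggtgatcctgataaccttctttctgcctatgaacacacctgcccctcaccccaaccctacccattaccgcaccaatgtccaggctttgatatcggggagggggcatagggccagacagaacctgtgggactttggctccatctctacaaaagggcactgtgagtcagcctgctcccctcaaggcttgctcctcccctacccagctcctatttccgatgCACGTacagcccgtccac
Car12, chr9:66713436-66713685, plus strand: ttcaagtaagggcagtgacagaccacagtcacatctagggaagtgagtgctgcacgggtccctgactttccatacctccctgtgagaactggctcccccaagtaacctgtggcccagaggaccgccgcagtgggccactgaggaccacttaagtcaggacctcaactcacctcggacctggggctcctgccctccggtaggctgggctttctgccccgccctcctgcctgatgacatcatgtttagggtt
Car14, chr3:95904686-95904935, minus strand: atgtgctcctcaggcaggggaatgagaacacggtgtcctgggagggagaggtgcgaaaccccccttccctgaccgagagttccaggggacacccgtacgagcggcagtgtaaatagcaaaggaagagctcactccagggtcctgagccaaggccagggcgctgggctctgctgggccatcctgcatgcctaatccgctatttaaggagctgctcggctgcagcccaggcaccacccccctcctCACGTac
Car9 had 1 match of ACGTG, on the reverse strand, starting 18 bases before the start site. Car14 had 1 as well, also on the reverse strand, 7 bases before the start. Car12 had 0 matches of either motif in its window. Of all 32851 windows, 19.6% held ACGTG, 32.4% GCGTG and 43.8% either. Car4 had 1 match of ACGTG, after the start, and of the 3 windows of Car7 one had 2 matches of GCGTG, one had 1 and the other had 0. In CG dinucleotides, the sites at which DNA methyltransferases act, the 300-base windows held 5 for Car9, 9 for Car12, 13 for Car14 and 15 for Car4, against a median of 7 over all windows. The 3 windows of Car7 held 28, 21 and 35. At least as many as in the Car9 window were found in 62.0% of all windows. Methylation was not measured on these arrays.

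Of the 7 other carbonic anhydrases on the array, Car1, Car11 and Car15 were above background on all arrays. Car11, which like Car8 lacks catalytic activity, was 10.05 in ELA and 9.22 in ES against 8.61 with AZA and 8.59 with CHQ. Its differences from ELA were -1.44 with AZA and -1.47 with CHQ, on the side of Car3, Car4, Car7 and Car14. Car5a, a mitochondrial enzyme, was not well above background in ELA and was at least 4.43-fold higher with AZA and at least 2.37-fold higher with CHQ. The calls among these 7 were Car11 with both inhibitors and Car5a with AZA, the latter lost under scaling to the 75th percentile and in the deposited table, with 0 calls between ELA and ES. Between CHQ and AZA there were 0 as well, or 1, lower with CHQ, under scaling to the 75th percentile, spike-in scaling and in the deposited table. Car10 was not above background anywhere.

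The pathway lists hold genes of families linked to transport of the substrates and products of these enzymes, and genes of the response to low oxygen. Egln1 and Egln3 stand in 2 lists. Of the 7 tested genes of the SLC4 family, which includes bicarbonate transporters, 3 were called between AZA and ELA, all higher, while the median was -0.51. Between CHQ and ELA, 3 of 8 were called, 2 of them higher, with a median of 0.26. The shares over all genes tested were 25.6% and 26.6%, and the medians -0.07 and -0.09. Slc4a11, a membrane transporter of the corneal endothelium among other tissues, read 12.39 in ES and 10.98 in ELA, and 14.89 with AZA and 16.02 with CHQ. Its differences of -1.42 between ELA and ES, 3.91 with AZA and 5.04 with CHQ have the signs of those of Car12. Slc4a5, a sodium bicarbonate cotransporter, read 11.33 in ES and 10.70 in ELA, and 13.65 with AZA and 11.24 with CHQ. Like Car9 it was high on the AZA array, by 2.95 over ELA, with CHQ 2.40 below AZA. A second Slc4a5 probe had 1.67 and -1.85. Slc4a3, a chloride-bicarbonate exchanger, was higher by 1.10 with AZA and 1.57 with CHQ, and its dimmer probe by -0.01 and 0.21. Slc4a2, an exchanger of the same kind, was 1.18 lower with CHQ. Between ELA and ES, Slc4a8 was 1.15 higher.

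Among the SLC26 anion exchangers, 2 of 6 were called between AZA and ELA and 4 of 7 between CHQ and ELA, with equal numbers in each direction and medians of 0.22 and 0.31. Of all genes tested, 25.6% and 26.6% were called in these comparisons, and nothing is read from such small counts. The CHQ count was 2 under scaling to the 75th percentile and in the deposited table and 3, of which 2 lower, without background subtraction, and the AZA count was 4 under spike-in scaling and 3 with the mean over probes. Slc26a2, a sulfate transporter, was higher by 1.27 with AZA and 1.40 with CHQ and 1.30 lower in ELA than in ES. Slc26a1 was lower by 1.49 and 1.37 with the inhibitors and 1.08 higher in ELA than in ES. Its call between ELA and ES was lost under scaling to the 75th percentile, spike-in scaling, normalisation within a slide and in the deposited table. Slc26a6 was 1.24 lower with CHQ. Among the proton exchangers and lactate carriers, 4 of 11 were called between AZA and ELA and 5 of 11 between CHQ and ELA, with medians of 0.01 and 0.33. The shares over all genes tested were again 25.6% and 26.6%. Over the alternatives the counts of this list ran down to 2 and 3. Emb, a partner protein of lactate carriers, was lower by 3.09 with AZA and 2.13 with CHQ. Slc16a7, a monocarboxylate carrier, was higher by 1.65 with AZA, 2.97 with CHQ, and 1.32 between CHQ and AZA, from 1 of its 2 probes, the other being under background throughout. Slc9a5 was lower by 1.32 with AZA and 1.34 with CHQ, and 1.29 higher in ELA than in ES. The call between ELA and ES was lost under scaling to the 75th percentile, without background subtraction and in the deposited table. Under spike-in scaling the list had 0 higher calls and 1 lower call between ELA and ES.

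Of 22 HIF targets tested, 11 were called between AZA and ELA and 12 between CHQ and ELA, all higher, with medians of 1.04 and 1.27 against -0.07 and -0.09 over all genes. Of all genes tested, 14.3% and 14.8% were called higher in these comparisons. Under scaling to the 75th percentile or to the spike-in probes 1 target was lower in each of these comparisons, and with the mean over probes 1 between AZA and ELA. Ndrg1, a stress-responsive gene, was higher by 2.97 with AZA and 4.02 with CHQ. Adm, the gene of the vasodilator peptide adrenomedullin, was higher by 2.73 and 4.01. Vegfa, the angiogenic growth factor, was higher by 2.88 with AZA and 2.36 with CHQ, and by 1.92 and 1.20 by its dimmer probe. Ddit4, an inhibitor of growth signalling, was higher by 2.20 with AZA and 3.03 with CHQ. Between CHQ and AZA, within the treated slide, 2 of 21 targets were called, near the 10.3% of all genes tested. The count was 1 under scaling to the 75th percentile, spike-in scaling and normalisation within a slide. The 2 were Adm and Ndrg1, higher with CHQ by 1.28 and 1.05 at the main values. The list ran from -0.74 to 1.28 there with a median of 0.23, and Pdk1 (-0.74), Slc2a3 (-0.60) and Vegfa (-0.51), all called with AZA, were on the side of Car9, whose difference was -3.65. Pdk1 and Slc2a3 are named for these values, after they were seen. Among the genes that control HIF, 2 of 10 were called between AZA and ELA and 3 of 10 between CHQ and ELA, with medians of -0.57 and -0.49. These counts are near the shares over all genes tested, 25.6% and 26.6%. Arnt, the shared partner subunit, was higher by 1.18 with AZA and 1.13 with CHQ by its brighter probe and by 1.53 and 0.46 by the dimmer one. Arnt2 was lower by 1.69 and 1.10. Both of these calls were lost under scaling to the 75th percentile, and the call with AZA also in the deposited table. Egln3, a prolyl hydroxylase, was 1.32 higher with CHQ. Between ELA and ES, where 0 genes of this list were called under spike-in scaling, Egln3 and Arnt2 were higher by 1.19 and 1.12. The 3 probes of Hif3a disagreed, with 1.52, -0.22 and 1.17 from the brightest to the dimmest.

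**Figure D3:**
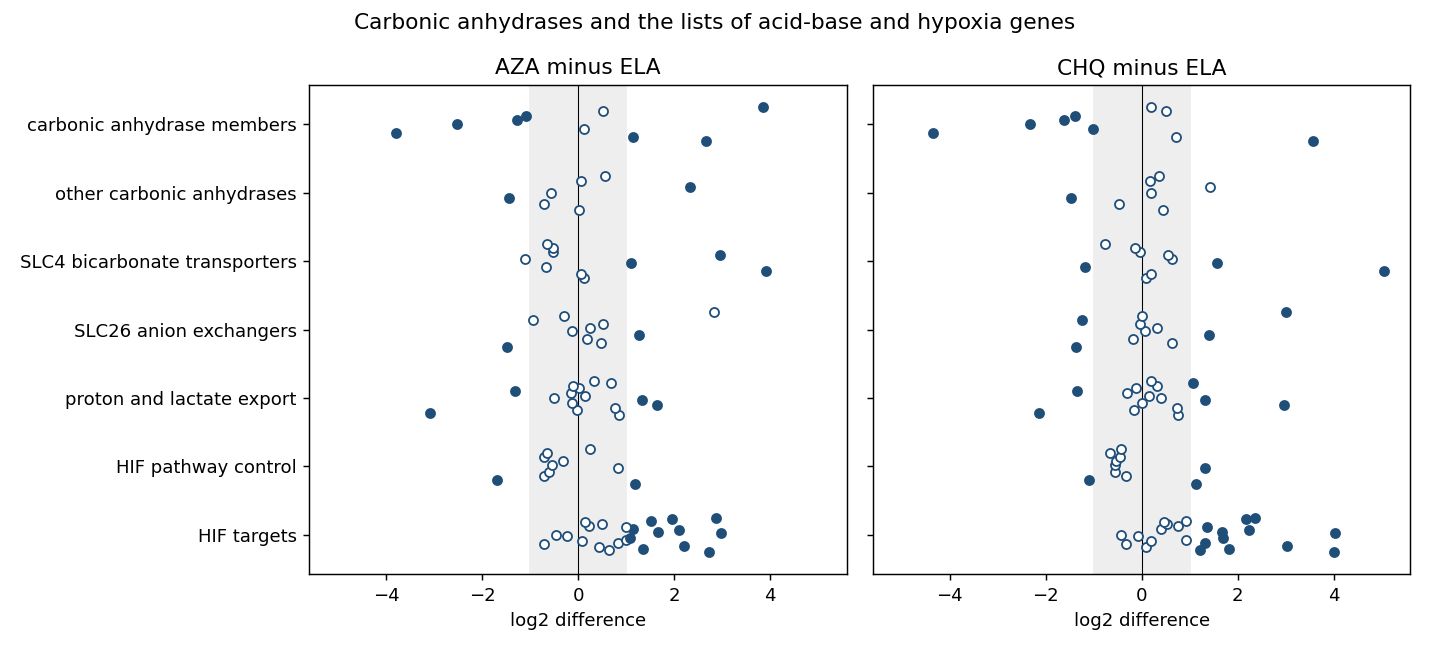
Log2 differences from ELA of every gene of each list, left for AZA and right for CHQ, with filled circles for called genes and the grey band for differences under 1. Members lie on both sides from -3.79 to 3.84 with AZA and from -4.35 to 3.57 with CHQ, whereas the called HIF targets all lie to the right at these main values.

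The genes whose 4-array pattern was closest to that of Car9, by Euclidean distance between mean-centred log2 values among 5197 named genes called in at least 1 comparison, were Pyy (distance 0.36), Defb42 (0.53), Kiss1 (0.61), Rac2 (0.72) and Ace (0.88). Pyy, a gut peptide hormone, read 7.18 in ES and 6.95 in ELA, and 10.60 with AZA and 7.45 with CHQ. Kiss1, the kisspeptin precursor, was above background with AZA alone. Defb42 was under background in ELA, and Rac2 in ES and ELA. Closest to Car14 were Mcoln3 (0.62), Spon1 (0.63), Gprin1 (0.75), Rragd (0.76) and Dbn1 (0.92). Spon1, a secreted matrix protein, read 8.03 in ES and 10.48 in ELA, and 6.95 with AZA and 6.98 with CHQ. Dbn1, the actin-binding protein drebrin, read 11.23, 12.64, 9.70 and 9.08 in the same order. Mcoln3 was under background with CHQ. The likeness rests on 4 arrays, and a shared peak follows from how the genes were picked.

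**Figure D4:**
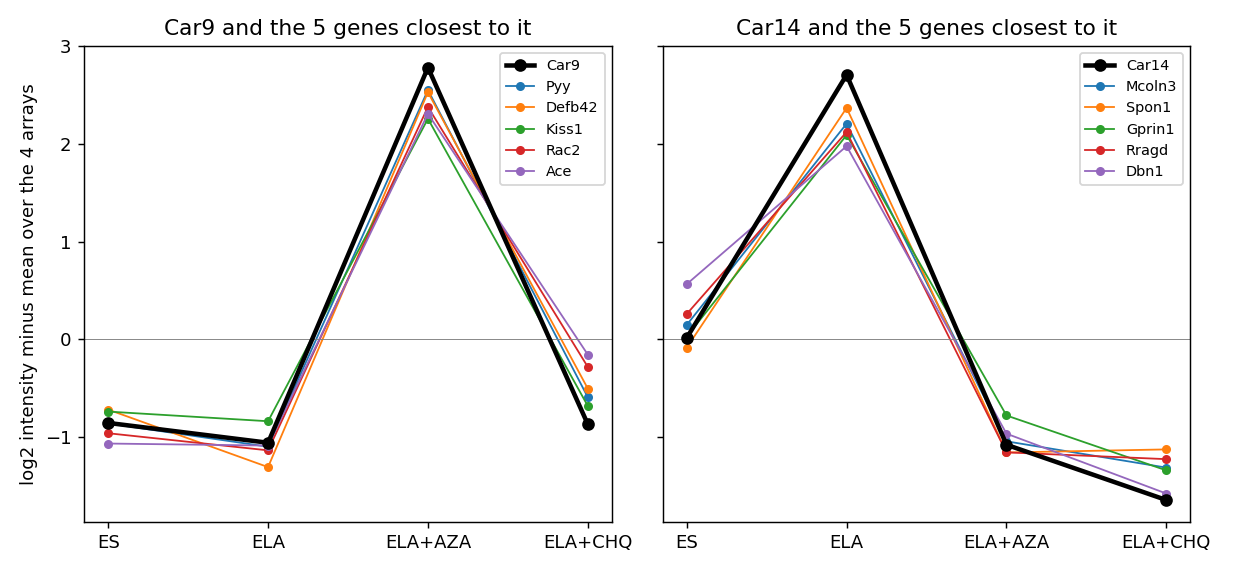
Log2 intensity minus its mean over the 4 arrays for Car9 (left) and Car14 (right), drawn in black, and the 5 genes closest to each in colour, with 1 array per group. Car9 and its closest genes peak with AZA and Car14 and its closest genes peak in ELA, which follows from how the genes were picked.

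The labelled cell states were set against marker genes. All 9 markers of naive and primed pluripotency were above background on every array, with summed linear levels of 233876 in ES and 163529 in ELA, and 295514 with AZA and 190609 with CHQ. Zfp42, Klf4 and Esrrb were 3.80, 3.04 and 2.85 lower in ELA than in ES and Fgf5 was 2.86 higher. Against ELA, with AZA and CHQ in that order, Zfp42 differed by 3.73 and 3.05, Klf4 by 4.09 and 3.50, Esrrb by 3.90 and 1.89, and Fgf5 by -2.54 and -1.15. Otx2 differed by 0.33 and -0.31, Pou3f1 by -1.55 and 0.30, Pou5f1 by -0.41 and -0.89, and Sox2 by 0.99 and 0.64, in the same order. The 2 probes of Nanog disagreed, with 2.86 and 0.01 for the brighter one and -1.55 and -1.01 for the dimmer one against ELA, and -2.85 and 0.53 between CHQ and AZA. Endoderm markers above background numbered 3 of 5 in ES and 2 in ELA, and 5 with AZA and 4 with CHQ, with summed levels of 602, 846, 911 and 2169, and between CHQ and AZA Gata6 and Sox17 were 1.83 and 1.75 higher with CHQ, Foxa2 0.81 and Gata4 0.03 higher, and Sox7 0.37 lower. Against ELA, Foxa2 differed by -1.81 with AZA and -1.01 with CHQ. Gata6 (1.37 and 3.20) and Sox17 (1.00 and 2.74) differed from a level under background in ELA, so that these sizes are not exact. A second Sox17 probe, also under background in ELA, had 0.21 and 1.38, and 1.16 between CHQ and AZA. Erythroid markers, which bear on Car1 and Car2, numbered 5 of 8 in ES and 5 in ELA, and 6 with AZA and 6 with CHQ, with summed levels of 3131, 5555, 2720 and 2125, carried mostly by Epor and Gata1 except on the CHQ array. The embryonic globins Hba-x and Hbb-y were under background on every array and Hbb-bh1 was above it on all 4. Epor (-1.51 and -2.42) and Gata1 (-1.28 and -2.26) were called lower than ELA with AZA and CHQ, and the globin Hba-a1 was called higher with CHQ (1.59). Summed levels were 7037, 12287, 4029 and 5270 for 3 neural markers, 5271, 13344, 7846 and 3123 for 4 fibroblast markers, 733, 569, 925 and 1223 for 3 trophoblast markers, and 299, 335, 401 and 302 for 3 mesendoderm markers, in the order ES, ELA, AZA, CHQ. These sums add different probes and are carried mostly by Nes for the neural and by Thy1 for the fibroblast list, in which Col1a1 differed the other way, at -0.90 between ELA and ES and 1.30 between AZA and ELA. The part of any cell type in the values of the carbonic anhydrases was not tested, and in such bulk samples fewer cells of a type and less RNA per cell cannot be told apart.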

How the data were processed

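Per the file headers, images of Cy3-labelled cRNA were read with Agilent Feature Extraction 10.7.3.1, while the submitters' processing notes name version 9.1. The deposited scanner files give intensity per spot (mean, local background, processed) and flags, not normalised between arrays. The authors' deposited table of log2 values was made with limma (background correction and quantile normalisation) and ran at r = 0.999 with a correction without offset. Main values were computed with limma 3.58.1 in R 4.3.3, by normexp with an offset of 50, then quantile normalisation of the 4 arrays. Control and outlier-flagged spots were dropped, spots of a probe averaged, and the probe with the highest mean taken for a gene. Of 55122 probes, 47.8% were named through RefSeq (GRCm38.p6, names and neighbours only), and the rest by the array design. Probe coordinates are those of the files (mm9). With 1 array per group the number of arrays limits the precision and no p-value was computed. The members and lists were chosen with earlier results of these data known. Named were all members, up to 3 called genes per list and comparison that were above background on both arrays, neighbours, and the 5 genes closest to Car9 and to Car14. A gene of the lists that the rule names is not reported here. A lower bound of a fold divides the brighter array's signal by the dimmer array's lowest signal above background, or by the probe's own if higher. The call and the normalisation were tested on simulated data only for changes well above the threshold, in bright probes of a copied array. Changes near the threshold, dim probes and differences between slides were not covered. The 8 alternatives were scaling to the 75th percentile, no background subtraction, spike-in scaling, the deposited table, the mean over probes, no minimum level, detection on both arrays, and normalisation within a slide.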

Additional observations from a re-analysis of the deposited data

Results flagged for a closer look

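Car2 lay on opposite sides of ELA with the 2 inhibitors, at 0.13 with AZA and -1.01 with CHQ, so that CHQ was 1.14 lower than AZA (log2 difference -1.14). The difference was not tested, because each group has 1 array, and the value with AZA is within the SD of repeated spots.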

How the results depend on the processing

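The count of members called stayed within 1.5 times under each of the 8 alternatives that could be run for a comparison. Between AZA and ELA it was 7 and between CHQ and ELA 6 under all of them, and the called genes were the same. Between ELA and ES it was 3 under spike-in scaling, where Car2 joined, and 3 with the mean over probes, where Car4 joined. Between CHQ and AZA it was 3 with the mean over probes, again with Car4. Of 198 member differences recomputed, 150 moved by less than the SD of repeated spots, 48 by more, and 0 called differences changed sign. Car9 between AZA and ELA ran from 3.48 under spike-in scaling to 4.82 in the deposited table, and Car14 from -3.79 to -4.10. Of 132 counts over the other carbonic anhydrases and pathway lists, 33 moved by more than 1.5 times. No paired analysis was possible because each group has 1 array, and no replicate could be left out. Dim levels such as Car9 in ES, ELA and CHQ and all of Car8 are limited by the signal over background.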

Other observations

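Slc26a9, an anion transporter of airway and stomach, read 7.27 in ES, 8.91 with AZA and 9.08 with CHQ and was not well above background in ELA. Slc4a4, a sodium bicarbonate cotransporter, was 1.10 lower with AZA than in ELA and 0.63 higher with CHQ, at levels of 6.84 in ES and 7.61 in ELA, and 6.51 with AZA and 8.23 with CHQ. These are values of the brightest of its 3 probes, and Slc4a4 was not called in any comparison. Both genes were singled out after their values were seen.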
